A study of Bos taurus with 24 samples.

Results

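Cumulus cells and mural granulosa cells of late antral bovine follicles were compared by RNA sequencing across all genes. The comparison takes the 5 libraries labelled as cumulus cells of late antral follicles (late_CC, numbered 1 to 5 as in their labels) and the 5 labelled as mural granulosa cells of the same stage (late_MGC, called A to E by the letter in their column names), 10 of the 24 libraries of the series. It covers the 27607 genes of the deposited table, of which 14298 had enough counts to test. The series also holds 5 libraries each of cumulus and mural cells from early antral follicles (early_CC and early_MGC) and 4 of granulosa cells from secondary follicles (secondary_GC). All samples are total RNA of Bos taurus, copied to cDNA with a kit for very small RNA inputs before library preparation. The labels give no treatment, genotype, animal age or follicle size, and do not say whether replicates came from separate animals, follicle pools or cultures. The p-values therefore measure only the spread between these samples, which may be technical. The title of the series concerns how well granulosa cells extend transzonal projections as follicles develop.

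Granulosa cells are the somatic cells that surround the oocyte. When the fluid-filled antrum forms, they part into cumulus cells, which stay attached to the oocyte, and mural cells, which line the follicle wall near its blood vessels. The layer itself holds no vessels. Cumulus cells send transzonal projections, thin actin-filled processes, through the zona pellucida to the oocyte, and pass it pyruvate, nucleotides and amino acids through gap junctions. Mural cells are the main site of oestradiol synthesis and carry receptors for the gonadotrophins.

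Levels are given as counts per 1000000 counts of the library (CPM), and differences as log2 fold changes of late_CC over late_MGC with their standard error, so a positive value means higher in cumulus cells. Total counts ran from 14195614 to 20353473 in the cumulus libraries and from 16547420 to 28757749 in the mural ones. A single fit with edgeR's quasi-likelihood test covered all 24 libraries. Genes with an adjusted p (Benjamini-Hochberg) under 0.05 are said to be called. The deposited table gives gene identifiers only, and the symbols used here were assigned by position from the annotation of the next assembly version, so single names can be wrong. In bulk samples, fewer cells of a type and less RNA per cell cannot be told apart.

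One mural library stood apart. On the principal components of the 10 libraries, the component with the most variance (43.9%) separated the cell types, and the next (24.8%) separated mural library C from all others. Its mean correlation with its own group was 0.87, against 0.9416 to 0.9495 for the other 4 mural libraries. Several granulosa markers were low in it. FSHR, the receptor for follicle-stimulating hormone, stood at 10.6 CPM in library C and 302 to 381 CPM in the other 4. AMH, anti-Müllerian hormone, was at 2.73 against 147 to 251 CPM, and INHA, the inhibin alpha subunit, at 26.3 against 1846 to 2664 CPM. HSD17B1, CYP19A1, NR5A1 and FOXL2 of the same list were also well below the other mural libraries. GATA4 (50.3 against 66.96 to 81.2 CPM), INHBB (114 against 152 to 353) and NR5A2 (239 against 360 to 592) fell less. WT1 (3.32 against 3.34 to 4.77) and AMHR2 (0.429 against 0.363 to 1.38) stayed near or within the mural range.

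Library C held more of several matrix genes and of CSRP3. LUM (lumican) stood at 1621 CPM against 3.73 to 19.2 in the other mural libraries, DCN (decorin) at 276 against 2.22 to 3.69, and POSTN (periostin) at 588 against 49.98 to 68.6. Of the genes above every other late library, CSRP3, a muscle LIM protein, reached 1971 CPM where the highest of the other 9 was 3.81. SGK1, a serum- and glucocorticoid-regulated kinase, reached 659 CPM, CLDN1 (claudin 1) 175 CPM, CAPG, an actin-capping protein, 82.6 CPM and ANKRD55 52.4 CPM. Of the genes below every other late library, ABCC8 stood at 0.107 CPM, DHRS3, a retinal reductase, at 1.07, IHH (Indian hedgehog) at 1.93, HSD17B1, which makes oestradiol from oestrone, at 8.25 and SRGN (serglycin) at 315, while the lowest of the other 9 libraries held 15402 CPM of SRGN. These genes were picked because library C differed in them and are a description.

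Among 16 theca and stroma markers, the summed level was 2764 CPM in library C, 331 to 519 in the other mural libraries and 285 to 735 in the cumulus libraries. The defining theca gene CYP17A1 was at 0.161 CPM in library C and 0 in the other 9. The fibroblast marker THY1 was at 2.14 CPM in library C and 0 elsewhere, and COL3A1 at 49.4 CPM. The 12 granulosa markers summed to 465 CPM in library C and to 4161 to 5288 CPM in the other mural libraries. Fold changes below are therefore given with and without library C, except for genes with 3 or fewer counts in the mural libraries that then remain. Cumulus library 3 was the least typical of its group (mean correlation 0.9145, the other 4 at 0.9489 to 0.9552), and its values are named where they differ. Its column name carries the letter C too. In the numbered columns the letters A to E go with the numbers 1 to 5, and what the letters stand for is not given in the sources used here.

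**Figure D1:**
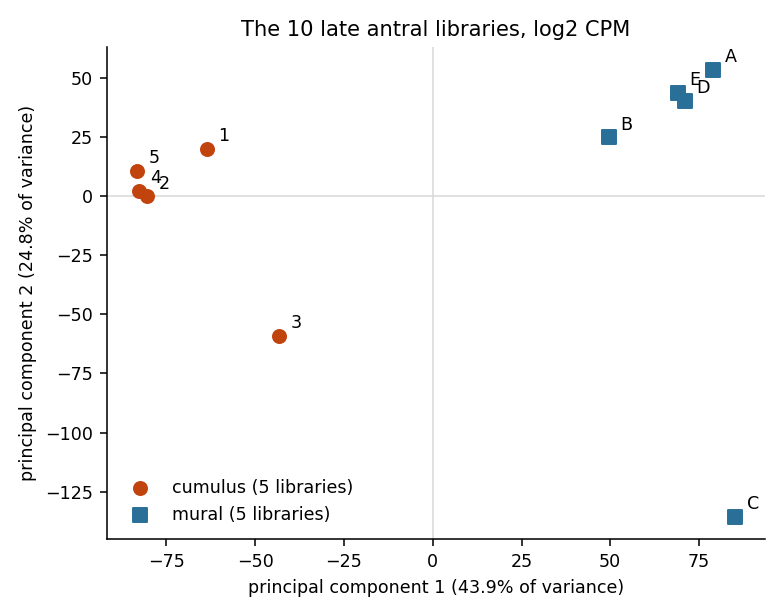
Principal components of log2 CPM in the 10 late antral libraries, each point a library, with circles for cumulus libraries 1 to 5 and squares for mural libraries A to E. The horizontal axis holds 43.9% of the variance and parts the cell types, and mural library C lies alone at the bottom of the vertical axis, which holds 24.8%.

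With all libraries, 2704 genes were higher and 2969 lower in cumulus cells, 18.9% and 20.8% of the 14298 tested and 39.7% together. Without mural library C, 3005 were higher and 2886 lower, 21.3% and 20.5% of 14103 (41.8% together). Both fits called the same direction for 2464 higher and 2586 lower genes (17.5% and 18.3%), of which 1604 and 1628 differed at least 2-fold in both. The other 623 genes called with library C and 841 called without it were not called in the same direction in the other fit, and 5 genes, counted among both, were called in opposite directions. The levels of all 5 cumulus libraries lay apart from those of all 5 mural libraries for 22.7% of genes, and from mural libraries A, B, D and E for 32.8%. These shares are the background against which the counts for gene lists below should be read. The counts cover list members that had a symbol and passed the filter on low counts. Of the pathway lists, those that lost 6 or more members were amino acid transporters (14 of 21 tested), BMP and TGF-beta genes (14 of 24), Wnt (18 of 28), Notch (12 of 18) and cumulus expansion (12 of 19), while all 18 hypoxia genes were tested. The median log2 fold change over all genes tested was 0.02, and 0.11 without library C.

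Genes of the hypoxia response were higher in cumulus cells, VEGFA and NDUFA4L2 among them. Cells that lack oxygen stabilise the transcription factor HIF1A, which turns on genes for vessel growth, glucose uptake, glycolysis and the limiting of mitochondrial respiration. In cumulus cells, 15 of the 18 listed hypoxia genes were higher and 0 lower, with a median log2 fold change of 2.65, where 18.9% of all genes were higher. Without mural library C, 17 were higher and 0 lower, with a median of 3.17. Leaving out cumulus library 3 as well gave 18 higher.

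VEGFA, the growth factor that draws in blood vessels (ENSBTAG00000005339, chromosome 23, 17281915 to 17297193 in ARS-UCD1.2), stood at 663, 1219, 209.5, 1458 and 1404 CPM in cumulus libraries 1 to 5 and at 12.7, 6.95, 5.95, 5.05 and 9.49 CPM in mural libraries A to E. All cumulus libraries lay above all mural libraries, with cumulus library 3 the lowest. The log2 fold change was 6.67 ± 0.59, adjusted p = 3.9e-08, and 6.55 ± 0.65, adjusted p = 9.3e-08, without mural library C. NDUFA4L2, a hypoxia-induced protein of the inner mitochondrial membrane that lowers the activity of the respiratory chain (ENSBTAG00000031503, chromosome 5, 56205859 to 56208161), stood at 874, 701, 5.95, 789 and 595 CPM in the cumulus libraries and 1.01, 1.69, 0, 0.361 and 0.569 in the mural ones. Cumulus library 3 lay far below its own group but still above every mural library. The log2 fold change was 9.41 ± 1.17, adjusted p = 3.4e-06, and 9.08 ± 1.23, adjusted p = 9.0e-06, without mural library C.

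EGLN3, a prolyl hydroxylase that marks HIF proteins for breakdown and is itself induced by them (ENSBTAG00000008172, chromosome 21, 44387137 to 44416154), stood at 49.5, 84.5, 15.3, 72.1 and 74.1 CPM in cumulus and 0.348, 0.242, 1.93, 0.361 and 0.285 CPM in mural libraries (6.36 ± 0.81, adjusted p = 2.6e-06, and 7.27 ± 0.82, adjusted p = 3.6e-07, without mural library C). DDIT4, an inhibitor of the growth kinase mTORC1, ranged from 122 to 1421 CPM in cumulus libraries and stood at 29.3, 20.1, 20.2, 18.7 and 33.4 CPM in mural libraries (4.88 ± 0.54, adjusted p = 3.8e-07, and 4.79 ± 0.60, adjusted p = 1.7e-06, without mural library C). The groups overlapped for neither gene. The circadian repressor BHLHE40, also a known HIF target, ranged from 135 to 880.1 CPM in cumulus libraries and from 2.32 to 5.15 in mural libraries other than C, where it was 105 (4.36 ± 0.92, adjusted p = 8.9e-04, and 6.86 ± 0.65, adjusted p = 5.1e-08, without mural library C). EPO, erythropoietin, the hormone of red cell formation and a classic HIF target, was named after its values were seen. It stood at 14.1, 13.5, 0.138, 15.4 and 14.02 CPM in cumulus libraries and 0.695, 0.967, 0, 0 and 0.190 CPM in mural libraries (4.64 ± 0.96, adjusted p = 5.3e-04, and 4.32 ± 0.91, adjusted p = 5.4e-04, without mural library C). The groups overlapped through cumulus library 3, which held less EPO than mural libraries A, B and E.

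**Figure D2:**
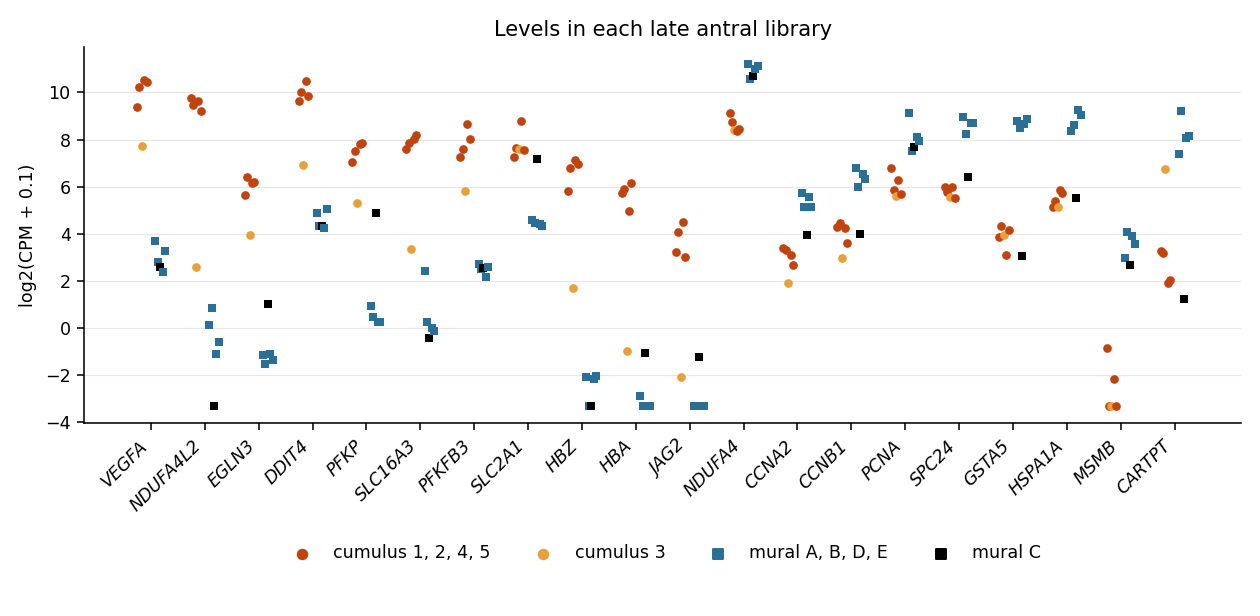
Levels of 20 genes in each of the 10 late antral libraries as log2(CPM + 0.1), circles for cumulus and squares for mural libraries, with cumulus library 3 and mural library C in colours of their own. From VEGFA to JAG2 most cumulus libraries lie above the mural ones, from NDUFA4 to CARTPT below them, and cumulus library 3 is the lowest cumulus point for VEGFA at 209.5 CPM.

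Glycolysis moved the same way. Of 24 genes for glucose uptake, glycolysis and lactate handling, 18 were higher and 2 lower in cumulus cells (median 1.91), and without library C 19 and 2 (median 2.05). Summed over the 24 genes, the level was 31742, 27549.7, 5145, 28636 and 30916 CPM in cumulus libraries 1 to 5 and 8340.5, 4529, 7061, 5265 and 5734 CPM in mural libraries A to E. Cumulus library 3 thus fell inside the mural range, while the other 4 cumulus libraries lay far above it.

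At the entry step, the glucose transporter SLC2A1 stood at 153, 203, 192, 443 and 191 CPM in cumulus libraries and 23.9, 21.8, 144, 21.5 and 19.97 CPM in mural libraries, where library C came close to the lowest cumulus library. Its log2 fold change was 2.20 ± 0.46, adjusted p = 6.8e-04, and 3.16 ± 0.32, adjusted p = 3.7e-08, without mural library C. PFKP, the platelet form of phosphofructokinase, which commits glucose to glycolysis (ENSBTAG00000002683, chromosome 13, 45107041 to 45161102), stood at 133, 183, 39.2, 224 and 229 CPM in cumulus and 1.81, 1.27, 29.6, 1.08 and 1.09 CPM in mural libraries, with library C far above the other mural libraries (4.42 ± 0.82, adjusted p = 2.4e-04, and 6.64 ± 0.55, adjusted p = 7.3e-09, without mural library C). PFKFB3, whose product activates phosphofructokinase, ranged from 56.3 to 406 CPM in cumulus libraries against 6.43, 5.56, 5.78, 4.39 and 5.84 CPM in mural libraries (5.00 ± 0.45, adjusted p = 3.5e-08, and 4.97 ± 0.50, adjusted p = 7.8e-08, without mural library C). No cumulus library fell within the mural range for any of these genes.

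At the exit, the lactate exporter SLC16A3 (ENSBTAG00000017461, chromosome 19, 50634317 to 50642204) stood at 192, 230.4, 10.2, 261 and 291 CPM in cumulus libraries and 5.32, 1.09, 0.643, 0.901 and 0.807 CPM in mural libraries (6.45 ± 0.79, adjusted p = 2.0e-06, and 6.21 ± 0.84, adjusted p = 7.4e-06, without mural library C). PDK1, the kinase that keeps pyruvate from entering mitochondria, ranged from 28.8 to 219 CPM in cumulus libraries and stood at 13.9, 10.4, 10.3, 6.07 and 7.31 CPM in mural libraries (3.89 ± 0.40, adjusted p = 1.3e-07, and 3.88 ± 0.45, adjusted p = 3.8e-07, without mural library C). The lactate dehydrogenase subunits went opposite ways, and both were named after their values were seen. LDHA stood at 2479, 1658, 185, 2023 and 1655 CPM in cumulus and 513, 90.6, 292, 132 and 130.1 CPM in mural libraries (2.53 ± 0.63, adjusted p = 0.003, and 2.57 ± 0.71, adjusted p = 0.0067, without mural library C), with cumulus library 3 inside the mural range. LDHB was lower in cumulus cells, at 676 to 1263 CPM against 1049.8 to 1489 CPM (-0.63 ± 0.18, adjusted p = 0.0076, and -0.72 ± 0.18, adjusted p = 0.0028, without mural library C), and its groups overlapped. LDHB lost its call in 1 of 25 alternatives (adjusted p = 0.071). The other listed gene that was lower was the neuronal enolase ENO2.

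Genes of mitochondrial respiration went the other way, a group chosen by symbol after values were seen. Of 87 nuclear-encoded subunits and assembly factors of the respiratory chain and ATP synthase, 81 were lower and 2 higher in cumulus cells (median -1.49), with 81 and 2 without library C (median -1.58). The 2 higher genes were NDUFA4L2 and COX4I2, both known for their induction at low oxygen, and COX4I2 was low, at 0.675 ± 0.485 CPM in cumulus and 0.0543 ± 0.0514 CPM in mural libraries (SD, n = 5). Summed over the 89 genes of the group, the level was 29908, 23966, 18056, 17419.7 and 20649 CPM in cumulus libraries 1 to 5 and 63481, 45018, 49405, 58162 and 59949.9 CPM in mural libraries A to E. The highest cumulus library thus lay well below the lowest mural library, and both cumulus library 3 and mural library C lay within the range of their groups.

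NDUFA4, a subunit of cytochrome c oxidase whose relative NDUFA4L2 is described above (ENSBTAG00000011145, chromosome 4, 19041321 to 19049196), was named after its values were seen. It stood at 556, 428, 339, 328 and 353 CPM in cumulus libraries and 2336, 1519, 1678, 2019 and 2234 CPM in mural libraries, with no overlap, and had a log2 fold change of -2.50 ± 0.20, adjusted p = 1.1e-08, and -2.58 ± 0.20, adjusted p = 1.0e-09, without mural library C. The cytochrome oxidase subunit COX4I1 stood at 579, 549, 523, 363 and 493 CPM and 805, 703, 910.3, 774 and 860.4 CPM, again without overlap (-0.88 ± 0.16, adjusted p = 1.4e-04, and -0.88 ± 0.17, adjusted p = 2.2e-04, without mural library C). COX4I1 lost its call in 1 of 25 alternatives (adjusted p = 0.082). Of 74 mitochondrial ribosomal proteins, 59 were lower and 3 higher (without library C 63 and 3). Transcripts of the mitochondrial genome itself did not follow. Of its 32 genes tested, 2 were higher and 5 lower (2 and 4 of 31 without library C). They took 11.4% to 27.7% of counts in cumulus libraries, the highest in library 3, and 10.3% to 21.5% in mural libraries.

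Exon length moved with the comparison. In the fifth of tested genes with the shortest summed exons (up to 1236 bases), 10.3% were higher and 37.1% lower in cumulus cells. In the fifth with the longest (from 3894 bases), 30.5% were higher and 8.85% lower. The median exon length of the respiratory genes was 1095 bases, of the hypoxia genes 2479, and of all genes tested 2342. With offsets corrected for length in each library, 74 respiratory genes were lower, 54 mitochondrial ribosomal proteins, 16 hypoxia genes higher, 17 glycolysis genes higher and 22 cell cycle genes lower. The median log2 fold change went from -1.49 to -1.02 for respiratory genes and from -1.24 to -0.92 for mitochondrial ribosomal proteins. It went from 2.65 to 2.60 for hypoxia, 1.91 to 1.93 for glycolysis and -1.35 to -1.52 for cell cycle genes. Cytosolic ribosomal proteins changed more in their counts, and their median went from -0.66 to -0.20. Of 77, 42 were lower and 0 higher before the correction, and 19 lower and 4 higher after it. With this correction 16.8% of all genes tested were higher and 20.8% lower. The part of exon length in these differences was not tested further.

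**Figure D3:**
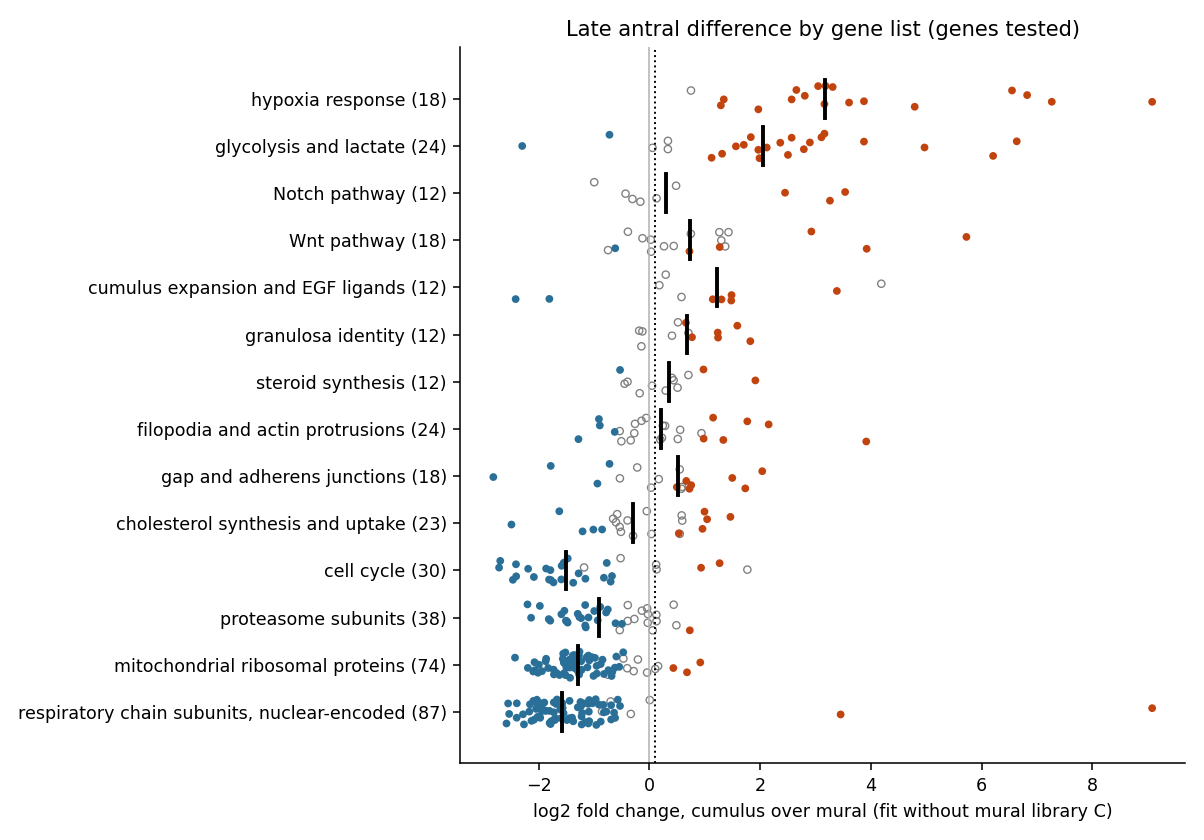
Log2 fold changes of cumulus over mural cells in the fit without mural library C, 1 point per gene tested, by list, with filled points for genes called at an adjusted p under 0.05, open points for the others and a black bar at each list's median. The dotted line is the median of all genes (0.11), hypoxia and glycolysis genes lie to its right and cell cycle and respiratory genes to its left; genes with 3 or fewer counts in a group are not drawn, and the bottom 3 lists were chosen after values were seen.

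Proliferation genes were lower in cumulus cells. Of 30 listed cell cycle genes, 22 were lower and 2 higher (median -1.35), and without library C 23 and 2 (median -1.51). The lower genes ran from the DNA replication clamp and helicase (PCNA, MCM2 to MCM7) to the mitotic cyclins and kinases. CCNA2, the cyclin of S and G2 phase (ENSBTAG00000004943, chromosome 6, 3425574 to 3431686), stood at 10.6, 9.97, 3.67, 8.40 and 6.34 CPM in cumulus libraries and 53.8, 34.9, 15.5, 47.5 and 35.6 CPM in mural libraries, and the groups did not overlap (-2.50 ± 0.34, adjusted p = 3.8e-06, and -2.71 ± 0.30, adjusted p = 9.3e-08, without mural library C).

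CCNB1, which drives entry into mitosis, stood at 19.6, 22.2, 7.68, 19.1 and 12.2 CPM in cumulus libraries and 112, 62.5, 15.6, 93.6 and 79.5 CPM in mural libraries, where library C fell inside the cumulus range (-2.43 ± 0.41, adjusted p = 6.5e-05, and -2.69 ± 0.31, adjusted p = 2.3e-07, without mural library C). Its relative CCNB2 had log2 fold changes of -2.13 and -2.41 with and without library C. PCNA stood at 109.95, 57.7, 48.3, 78.6 and 52.3 CPM and 565, 181, 208, 273 and 247 CPM, without overlap (-2.33 ± 0.36, adjusted p = 1.6e-05, and -2.46 ± 0.36, adjusted p = 5.1e-06, without mural library C). SPC24, a kinetochore protein (ENSBTAG00000006185, chromosome 7, 15587514 to 15594237), ranged from 46.1 to 63.5 CPM in cumulus libraries and from 299 to 502 in mural libraries other than C, which held 84.5 (-2.89 ± 0.33, adjusted p = 3.6e-07, and -3.15 ± 0.23, adjusted p = 3.9e-10, without mural library C). CENPW, another kinetochore protein, and the mitotic phosphatase CDKN3 had log2 fold changes of -2.89 and -3.10, and -2.81 and -3.10, with and without library C.

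The inhibitor of cell cycle entry CDKN1B (p27) was among the few higher genes of the list, at 72.1, 90.2, 34.1, 87.1 and 87.4 CPM in cumulus libraries and 22.7, 31.97, 38.8, 26.8 and 22.3 CPM in mural libraries, with cumulus library 3 inside the mural range (1.18 ± 0.22, adjusted p = 1.8e-04, and 1.27 ± 0.24, adjusted p = 1.1e-04, without mural library C). The other higher gene was the D-type cyclin CCND2. The related inhibitor CDKN1C (p57) went opposite to CDKN1B, with a log2 fold change of -4.80, given for the fit with all libraries only. CDKN1C was not among the 4 genes of this list named by their calls in both fits, the smallest of them CCNB2 (-2.41 without library C). It was therefore not called alike in both fits, or its log2 fold change without library C was smaller in size than that. Summed over the 31 genes, levels ran from 1932 to 2959 CPM in cumulus libraries and from 2644 to 3303 CPM in mural libraries other than C, which held 1200.3. The sums overlapped, and CCND2 alone averaged 1323 ± 269 CPM in cumulus and 483 ± 242 CPM in mural libraries (SD, n = 5).

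Beyond these lists, the largest cumulus-high genes included alpha-type globins and a Notch ligand. The embryonic globin HBZ (ENSBTAG00000038921, chromosome 25, 198487 to 199498) stood at 56.2, 110.3, 3.18, 142 and 127 CPM in cumulus libraries and 0.139, 0, 0, 0.120 and 0.142 CPM in mural libraries (9.62 ± 0.93, adjusted p = 1.1e-07, and 9.30 ± 0.99, adjusted p = 2.7e-07, without mural library C). HBA stood at 53.3, 59.1, 0.415, 30.8 and 71.9 CPM and 0.0348, 0, 0.375, 0 and 0 CPM (8.78 ± 1.04, adjusted p = 9.3e-07), and HBA1 at 16.5, 23.5, 0.692, 10.03 and 12.3 CPM and 0.0348, 0, 0.268, 0 and 0.0949 CPM (7.01 ± 0.87, adjusted p = 8.5e-07). The groups did not overlap for any of the 3, and cumulus library 3 was the lowest cumulus library for each, close to the mural level for HBA and HBA1. These related genes may share reads. Of the other red cell markers, the beta globin HBB and the anion exchanger SLC4A1 had 0 counts in all 10 libraries, and the haem synthesis enzyme ALAS2 was at most 0.138 CPM. AHSP of the same list was detected in all 10, at 0.831 to 2.58 CPM in cumulus and 0.901 to 1.69 CPM in mural libraries. Without library C the 4 remaining mural libraries held 1 count of HBA, a ratio of 3670.1 with a 95% counting interval of 658 to 145000, and HBA1 a ratio of 372 (127 to 1808).

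PPP1R3C, which targets a phosphatase to glycogen and favours glycogen storage (ENSBTAG00000014831, chromosome 26, 13208458 to 13213362), stood at 19.9, 22.7, 0.969, 25.7 and 20.3 CPM in cumulus libraries. Among mural libraries it was detected only in C, at 2.20 CPM, above cumulus library 3 (5.23 ± 1.28, adjusted p = 0.0026). Against a limit of 3 counts over the other 4 mural libraries it was at least 513-fold higher in cumulus cells. Such limits and intervals cover counting error only. JAG2, a ligand of Notch receptors, stood at 9.22, 16.95, 0.138, 22.2 and 8.10 CPM in cumulus libraries and at 0.321 CPM in mural library C only, where it exceeded cumulus library 3 (7.19 ± 1.22, adjusted p = 6.2e-05). It was at least 330.3-fold higher than the limit over the other 4 mural libraries.

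PARM1, a mucin-like membrane protein, stood at 31.4, 30.9, 83.6, 35.9 and 31.5 CPM in cumulus libraries and 0.0695, 0, 2.46, 0 and 0 CPM in mural libraries (6.31 ± 1.02, adjusted p = 5.3e-05). CCDC184 stood at 17.6, 17.4, 0.969, 15.9 and 17.1 CPM and 0, 0, 0.375, 0 and 0.0949 CPM (6.96 ± 0.92, adjusted p = 2.4e-06). Counts of both genes in the mural libraries came mostly from library C. Without it, the ratio of cumulus to mural levels was 1714 for PARM1 (95% counting interval 474 to 14155) and 591 for CCDC184 (163 to 4886). The skeletal muscle actin ACTA1, which resembles other actin genes and may share reads with them, ranged from 91.5 to 293 CPM in cumulus libraries, highest in library 3, and stood at 0.869, 1.57, 0.429, 0.841 and 1.23 CPM in mural libraries (7.14 ± 0.70, adjusted p = 1.3e-07, and 6.93 ± 0.74, adjusted p = 3.0e-07, without mural library C). WFDC2, a secreted protease inhibitor, ranged from 3.53 to 48.6 CPM in cumulus libraries and was at most 0.242 CPM in mural ones (7.07 ± 1.33, adjusted p = 3.0e-04, and 7.31 ± 1.58, adjusted p = 0.0011, without mural library C). WFDC2 lost its call in 1 of 25 alternatives (adjusted p = 0.056).

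The largest mural-high genes included detoxification enzymes, a heat shock protein and secreted peptides. The rule that named them took only genes called in the same direction with and without library C. For several, C still lay far from the other mural libraries. MSMB, a secreted protein known from prostate and mucosa (ENSBTAG00000011660, chromosome 28, 44061316 to 44071826), stood at 7.65, 16.98, 6.21, 14.7 and 11.7 CPM in mural libraries A to E and 0.458, 0, 0, 0.121 and 0 CPM in cumulus libraries 1 to 5, without overlap (-6.70 ± 0.70, adjusted p = 1.5e-07, and -6.87 ± 0.68, adjusted p = 3.9e-08, without mural library C). GSTA5, a glutathione transferase (ENSBTAG00000037949, chromosome 23, 25141525 to 25162882), stood at 443, 359, 8.20, 403 and 469.98 CPM in mural and 14.3, 19.9, 15.4, 8.40 and 17.6 CPM in cumulus libraries, and library C lay below all of the latter (-4.71 ± 0.78, adjusted p = 6.9e-05, and -5.03 ± 0.54, adjusted p = 2.3e-07, without mural library C). GSTA2 had log2 fold changes of -2.97 and -3.25 with and without library C. The abundant GSTA1 stood at 8015 to 14518 CPM in the mural libraries other than C, 1334 in C and 1189 to 6202 CPM in cumulus libraries (-1.52 ± 0.44, adjusted p = 0.0087, and -1.80 ± 0.33, adjusted p = 7.6e-05, without mural library C). GSTA1 lost its call in 2 of 25 alternatives (adjusted p up to 0.064). The GSTA genes are close relatives whose reads may be shared.

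HSPA1A, the inducible form of the heat shock protein HSP70, stood at 331, 395, 45.6, 606 and 526 CPM in mural and 34.9, 41.8, 35.4, 58.1 and 53.3 CPM in cumulus libraries, and library C again fell in the cumulus range (-3.33 ± 0.50, adjusted p = 1.8e-05, and -3.62 ± 0.35, adjusted p = 2.3e-08, without mural library C). CARTPT, a peptide precursor known to restrain oestradiol synthesis in bovine granulosa cells, stood at 169, 590.1, 2.25, 267 and 283 CPM in mural and 9.50, 9.04, 107, 3.62 and 4.02 CPM in cumulus libraries (-3.42 ± 1.24, adjusted p = 0.034, and -3.74 ± 1.15, adjusted p = 0.013, without mural library C). The highest cumulus library was 3, and library C lay below all of them. CARTPT lost its call in 10 of 25 alternatives (adjusted p up to 0.085), 5 of them the fits without cumulus 1, cumulus 2, cumulus 4, cumulus 5 or mural B, at -3.19 to -2.93. NR0B1 (DAX1), a repressor of steroidogenic gene transcription, ranged from 18.1 to 25.4 CPM in mural libraries other than C, 1.93 in C and 0.295 to 6.01 CPM in cumulus libraries (-3.50 ± 0.66, adjusted p = 2.4e-04, and -3.79 ± 0.54, adjusted p = 7.0e-06, without mural library C).

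CD99, an adhesion protein, had a log2 fold change of -5.25 ± 0.72, adjusted p = 8.1e-06, and -3.74 ± 0.38, adjusted p = 3.6e-08, without mural library C. Its level in the cumulus libraries was 0.491 to 2.98 CPM, and library C with 198 CPM lay far above the 13.3 to 24.9 CPM of the other mural libraries. CNTNAP5, a neurexin-like adhesion protein, and KCNE5, a potassium channel subunit, had log2 fold changes of -3.30 and -3.62, and -2.82 and -3.12, with and without library C. For both, library C lay below every cumulus library. CNTNAP5 lost its call in 1 of 25 alternatives (adjusted p = 0.0501).

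Genes that define granulosa cells were found in both groups. Of 12 such genes, 6 were higher and 0 lower in cumulus cells, the same counts with and without library C. GATA4, a transcription factor of gonadal somatic cells, stood at 201, 212, 96.7, 297 and 269.9 CPM in cumulus and 81.2, 66.96, 50.3, 74.2 and 80.4 CPM in mural libraries (1.37 ± 0.24, adjusted p = 7.3e-05, and 1.24 ± 0.24, adjusted p = 1.6e-04, without mural library C). FOXL2, the transcription factor that keeps granulosa identity, was listed low throughout, at 0.491 to 4.29 CPM in cumulus libraries and at most 0.786 CPM in mural libraries (1.91 ± 0.71, adjusted p = 0.035, and 1.59 ± 0.64, adjusted p = 0.0464, without mural library C). FOXL2 lost its call in 11 of 24 alternatives (adjusted p up to 0.11), 5 of them the fits without cumulus 1, cumulus 4, cumulus 5, mural A or mural E, at 1.55 to 2.01. FSHR stood at 390.4, 329.9, 301, 378 and 397 CPM in cumulus libraries and 346, 309.8, 10.6, 302 and 381 CPM in mural libraries. Its log2 fold change did not pass the test (0.17 ± 0.46, adjusted p = 0.8, and -0.14 ± 0.19, adjusted p = 0.56, without mural library C).

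AMH, which restrains follicle recruitment and is a known cumulus-enriched gene, stood at 526, 639, 208, 776 and 799.5 CPM in cumulus libraries and 147, 234, 2.73, 209.6 and 251 CPM in mural libraries (1.55 ± 0.59, adjusted p = 0.039, and 1.24 ± 0.29, adjusted p = 0.0012, without mural library C). Cumulus library 3 overlapped the mural libraries. AMH lost its call in 8 of 25 alternatives (adjusted p up to 0.14), 5 of them the fits without cumulus 2, cumulus 4, cumulus 5, mural A or mural D, at 1.41 to 1.63. The receptor for luteinising hormone, LHCGR, was near 0 in both groups, at most 0.415 CPM in any library, too low to test. IHH, a hedgehog ligand that signals to theca cells, ranged from 123 to 1382 CPM in cumulus libraries and from 223 to 298 CPM in mural libraries other than C.

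Inhibin and activin subunits differed among themselves. INHA stood at 2167, 2506, 1076, 3205 and 3425 CPM in cumulus and 1846, 2223, 26.3, 2319.7 and 2664 CPM in mural libraries and did not pass the test (0.19 ± 0.56, adjusted p = 0.81, and -0.13 ± 0.24, adjusted p = 0.7, without mural library C). The beta subunits did. INHBA (ENSBTAG00000048508, chromosome 4, 79288772 to 79302445) stood at 4889.8, 8039, 191, 11334 and 10799 CPM and 726, 1296, 89.8, 2517 and 2572 CPM, overlapping only through cumulus library 3 (2.03 ± 0.73, adjusted p = 0.032, and 1.72 ± 0.66, adjusted p = 0.04, without mural library C). INHBA lost its call in 12 of 25 alternatives (adjusted p up to 0.12), 5 of them the fits without cumulus 2, cumulus 4, cumulus 5, mural A or mural B, at 1.80 to 1.98. INHBB stood at 1023, 1383, 383, 1625 and 1386 CPM and 152, 289, 114, 308 and 353 CPM, without overlap (2.02 ± 0.52, adjusted p = 0.0036, and 1.82 ± 0.54, adjusted p = 0.0092, without mural library C). The activin-binding protein FST (follistatin) was abundant in both, at 3044 to 13529 CPM in cumulus libraries and 5008 to 6564 CPM in mural libraries other than C (0.69 ± 0.55, adjusted p = 0.33, and 0.38 ± 0.25, adjusted p = 0.23, without mural library C). FST gained a call in 2 of 25 alternatives (adjusted p up to 0.016).

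Of 12 steroid synthesis genes, 1 was higher and 3 lower in cumulus cells, beside 18.9% and 20.8% of all genes tested. Without library C the counts were 2 and 1, beside 21.3% and 20.5%. CYP19A1, the aromatase that makes oestrogens, stood at 39.2, 42.7, 4.36, 60.3 and 52.7 CPM in cumulus and 15.9, 26.6, 0.107, 28.9 and 29.04 CPM in mural libraries (0.73 ± 0.64, adjusted p = 0.39, and 0.41 ± 0.38, adjusted p = 0.41, without mural library C). CYP19A1 gained a call in 2 of 25 alternatives (adjusted p up to 0.018). Both of those leave out mural C and cumulus 3 (0.69 with only these left out). STAR, which carries cholesterol into mitochondria, was called lower in cumulus cells with all libraries and not without C (-2.53 ± 0.80, adjusted p = 0.015, and 0.44 ± 0.31, adjusted p = 0.27, without mural library C). Library C held 123 CPM of STAR and the other 9 libraries 1.74 to 5.44 CPM.

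CYP11A1, the side-chain cleavage enzyme that starts steroid synthesis, stood at 216, 221, 57.2, 348 and 240 CPM in cumulus and 66.4, 78.1, 249.6, 104 and 118 CPM in mural libraries, and did not pass the test with all libraries (0.62 ± 0.38, adjusted p = 0.2, and 0.98 ± 0.37, adjusted p = 0.038, without mural library C). CYP11A1 gained a call in 6 of 25 alternatives (adjusted p up to 0.0497), 2 of them the fits without cumulus 3 or mural C, at 0.86 to 0.98. HSD3B1, which makes progesterone, stood at 211, 218, 39.5, 200.4 and 187 CPM and 104, 75.96, 306, 93.4 and 126 CPM and did not pass (0.09 ± 0.43, adjusted p = 0.88, and 0.51 ± 0.42, adjusted p = 0.34, without mural library C). For these genes library C exceeded the other mural libraries, while it was the lowest for aromatase. SRD5A1, a reductase of testosterone and progesterone, was higher in cumulus cells, at 12.9 to 55.3 CPM against 7.15 to 16.02 CPM (1.77 ± 0.30, adjusted p = 4.3e-05, and 1.91 ± 0.31, adjusted p = 2.0e-05, without mural library C), and overlapped through cumulus library 3 and mural library C.

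Cholesterol genes were split. Of 23, 6 were higher and 4 lower in cumulus cells (5 and 5 without library C). EBP, a sterol isomerase late in the pathway, was lower in cumulus cells at 9.83 to 32.3 CPM against 63.4 to 153 CPM in mural libraries other than C (-2.25 ± 0.35, adjusted p = 1.7e-05, and -2.49 ± 0.28, adjusted p = 9.6e-08, without mural library C). FDPS, which makes farnesyl diphosphate, was lower too (-1.44 and -1.63 with and without library C). SQLE, the oxygen-using squalene epoxidase, was higher, at 239, 212, 31.8, 466 and 302 CPM in cumulus and 64.3, 78.1, 33.2, 80.9 and 76.1 CPM in mural libraries (1.65 ± 0.36, adjusted p = 9.2e-04, and 1.46 ± 0.36, adjusted p = 0.0019, without mural library C). Only cumulus library 3 lay below the mural range for it.

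**Figure D4:**
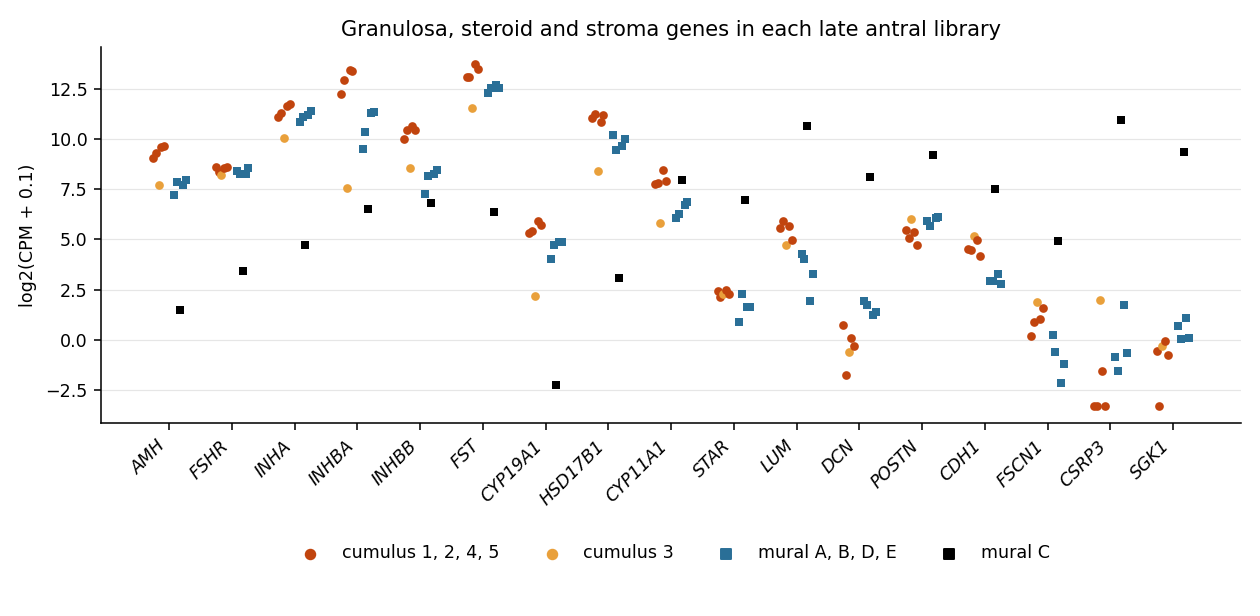
Levels of 17 granulosa, steroid and stroma genes in each of the 10 late antral libraries as log2(CPM + 0.1), circles for cumulus and squares for mural libraries. Mural library C, in black, is the lowest point for AMH, FSHR and INHA (2.73, 10.6 and 26.3 CPM) and the highest for STAR, LUM and CSRP3.

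Genes for actin protrusions, the machinery of transzonal projections, gave counts that changed with library C. Of 24, 3 were higher and 10 lower in cumulus cells with all libraries, and 6 and 4 without library C. Both fits called 3 higher and 4 lower. MYO10, the motor that carries cargo to filopodial tips (ENSBTAG00000020126, chromosome 20, 56233771 to 56495596) was 1 of the 3 higher genes. It stood at 90.5, 91.6, 70.5, 103 and 72.1 CPM in cumulus and 13.01, 21.5, 28.1, 17.2 and 13.8 CPM in mural libraries, with no overlap (2.01 ± 0.26, adjusted p = 1.5e-06, and 2.15 ± 0.27, adjusted p = 5.7e-07, without mural library C).

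DAAM1, a formin that lengthens actin filaments, stood at 43.2, 61.95, 79.3, 64.04 and 45.01 CPM in cumulus and 18.9, 25.99, 74.03, 25.6 and 19.9 CPM in mural libraries. Library C lay inside the cumulus range, and DAAM1 was not called with it (0.69 ± 0.29, adjusted p = 0.063, and 1.15 ± 0.24, adjusted p = 4.1e-04, without mural library C). DAAM1 gained a call in 12 of 25 alternatives (adjusted p up to 0.044), 2 of them the fits without cumulus 1 or mural C, at 0.80 to 1.15. FSCN1 (fascin), which bundles actin in filopodia, changed sign. It stood at 1.03, 1.77, 3.53, 1.93 and 2.89 CPM in cumulus and 1.08, 0.544, 30.2, 0.120 and 0.332 CPM in mural libraries (-1.59 ± 0.90, adjusted p = 0.17, and 1.77 ± 0.51, adjusted p = 0.0068, without mural library C). The low level of FSCN1 outside library C, at most 3.53 CPM, limits its precision.

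Junction genes differed one by one. Of 18, 5 were higher and 5 lower in cumulus cells, and without library C 7 and 4. GJA1 (connexin 43), the gap junction protein among granulosa cells, stood at 609.6, 662, 778, 666 and 599.6 CPM in cumulus and 799, 1207, 392, 1228 and 1120.1 CPM in mural libraries. Its log2 fold change was -0.73 ± 0.28, adjusted p = 0.044, and -0.94 ± 0.24, adjusted p = 0.003, without mural library C. GJA1 lost its call in 13 of 25 alternatives (adjusted p up to 0.19), 8 of them the fits without cumulus 1, cumulus 2, cumulus 4, cumulus 5, mural A, mural B, mural D or mural E, at -0.75 to -0.63. GJA4 (connexin 37), the connexin of the oocyte, was at most 0.554 CPM outside library C, which held 11.5 CPM (-4.01 ± 1.18, adjusted p = 0.0095, and -0.53 ± 0.83, adjusted p = 0.64, without mural library C). GJC1 (connexin 45) was lower in cumulus cells, at 2.40, 3.34, 7.89, 2.48 and 5.49 CPM against 11.9, 10.8, 10.2, 15.9 and 12.4 CPM, without overlap (-1.69 ± 0.33, adjusted p = 2.3e-04, and -1.78 ± 0.34, adjusted p = 1.2e-04, without mural library C).

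Of the adherens junction genes, AFDN (afadin), which ties nectins to actin, was higher in cumulus cells at 294, 356, 375, 392 and 291 CPM against 55.1, 133, 90.6, 87.5 and 78.1 CPM, without overlap (1.76 ± 0.21, adjusted p = 4.8e-07, and 1.73 ± 0.22, adjusted p = 8.7e-07, without mural library C). CDH1 (E-cadherin) changed sign with library C. It stood at 22.5, 22.5, 35.9, 31.5 and 18.2 CPM in cumulus and 7.58, 7.43, 181, 9.67 and 6.74 CPM in mural libraries (-0.78 ± 0.66, adjusted p = 0.37, and 1.50 ± 0.26, adjusted p = 5.6e-05, without mural library C). CDH2 (N-cadherin) stood at 235, 305, 609.6, 342 and 328 CPM and 134, 234, 394, 194 and 183 CPM and was not called with all libraries (0.52 ± 0.25, adjusted p = 0.098, and 0.76 ± 0.24, adjusted p = 0.013, without mural library C). CDH2 gained a call in 6 of 25 alternatives (adjusted p up to 0.043), 2 of them the fits without cumulus 1 or mural C, at 0.67 to 0.76.

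Single Notch and Wnt genes differed between the cell types, beside 18.9% of all genes tested higher and 20.8% lower. In the Notch list of 12 genes, 3 were higher and 2 lower in cumulus cells with all libraries (median -0.06). Without library C the counts were 5 and 0 (median 0.31). With length-corrected offsets and all libraries they were 3 and 3. JAG2 (above), DLL4 and HES1 were higher in both fits. JAG1, another ligand, changed direction, called lower with all libraries (-3.49, adjusted p = 0.044) and higher without library C (2.45, adjusted p = 0.025). The Notch target HEYL was called lower with library C (-2.32, adjusted p = 0.0057) and not without it (-0.99, adjusted p = 0.12). Both were named after their values were seen. DLL4, a ligand induced by VEGF in vessels, stood at 20.9, 31.6, 8.31, 34.7 and 35.1 CPM in cumulus and 1.91, 2.12, 0.107, 1.32 and 2.09 CPM in mural libraries, and HES1, a transcriptional target of Notch, at 87.7, 109.6, 79.2, 114 and 124 CPM and 10.6, 13.7, 48.1, 4.33 and 7.45 CPM. Neither overlapped between groups (3.84 ± 0.53, adjusted p = 3.9e-06, and 3.54 ± 0.44, adjusted p = 4.2e-07, without mural library C for DLL4, and 2.47 ± 0.43, adjusted p = 8.8e-05, and 3.26 ± 0.33, adjusted p = 2.6e-08, without mural library C for HES1). In the Wnt list of 18 genes, 6 were higher and 0 lower in cumulus cells with all libraries, and 5 and 1 without library C. SFRP4, a secreted Wnt antagonist (ENSBTAG00000015366, chromosome 4, 49731840 to 49742113), stood at 42.6, 39.6, 101, 20.7 and 23.7 CPM in cumulus and 0.765, 1.15, 0.482, 0.120 and 0.901 CPM in mural libraries (5.86 ± 0.52, adjusted p = 3.5e-08, and 5.73 ± 0.57, adjusted p = 7.1e-08, without mural library C).

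Among 14 BMP and TGF-beta genes, 1 was higher and 4 lower in cumulus cells with all libraries, and 2 and 3 without library C. ID1, a direct target of BMP signalling, stood at 1.03, 0.590, 0.831, 1.39 and 0.634 CPM in cumulus and 25.7, 3.81, 15.3, 1.56 and 3.61 CPM in mural libraries, without overlap but with a wide mural spread (-3.73 ± 0.65, adjusted p = 1.1e-04, and -3.61 ± 0.69, adjusted p = 2.8e-04, without mural library C). GREM1, a BMP antagonist known as a cumulus gene, was lower in cumulus cells here, at 5.32, 7.76, 9.21, 9.18 and 6.27 CPM against 12.1, 21.9, 10.3, 19.3 and 16.2 CPM (-1.29 ± 0.23, adjusted p = 9.9e-05, and -1.43 ± 0.22, adjusted p = 9.5e-06, without mural library C). KITLG, the ligand of the oocyte's KIT receptor, was lower too, at 1.03, 2.46, 0.831, 2.42 and 2.47 CPM against 5.04, 2.78, 52.3, 4.51 and 5.17 CPM (-3.04 ± 0.62, adjusted p = 4.5e-04, and -1.52 ± 0.35, adjusted p = 0.0011, without mural library C). The groups overlapped for none of the 3, and KITLG was by far highest in library C.

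Receptors and transporters added single genes. Among 13 hormone receptors, 3 were higher and 1 lower in cumulus cells, with and without library C. VDR, the vitamin D receptor, stood at 2.35, 3.39, 4.98, 3.20 and 3.94 CPM in cumulus libraries and at most 0.139 CPM in mural libraries (5.62 ± 0.73, adjusted p = 1.8e-06, and 5.32 ± 0.74, adjusted p = 2.6e-06, without mural library C). GHR, the growth hormone receptor, stood at 27.9, 26.4, 7.82, 25.7 and 24.2 CPM and 2.23, 3.20, 7.39, 4.15 and 2.42 CPM (2.36 ± 0.36, adjusted p = 1.6e-05, and 2.67 ± 0.37, adjusted p = 2.2e-06, without mural library C). Both separated the groups, though cumulus library 3 and mural library C came close for GHR. IGFBP4, which binds insulin-like growth factors, was higher in cumulus cells at 59.98, 58.3, 3.88, 92.1 and 81.6 CPM against 9.11, 9.19, 1.29, 9.25 and 9.20 CPM (2.69 ± 0.76, adjusted p = 0.0079, and 2.41 ± 0.74, adjusted p = 0.012, without mural library C), with cumulus library 3 below 4 of the mural libraries.

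Amino acid transporters went both ways. Of 14, 4 were higher and 4 lower in cumulus cells with all libraries, and 5 and 4 without library C. The glutamate carriers SLC1A1 and SLC1A3 were opposite. SLC1A1 stood at 31.9, 31.1, 2.35, 28.5 and 22.5 CPM in cumulus and 0.0348, 0.846, 2.57, 0.180 and 0.190 CPM in mural libraries (4.80 ± 0.79, adjusted p = 4.5e-05, and 6.07 ± 0.78, adjusted p = 9.6e-07, without mural library C). SLC1A3 stood at 0, 0.0983, 0.208, 0.121 and 0.704 CPM and 2.85, 2.54, 0.429, 2.94 and 2.89 CPM (-3.62 ± 0.79, adjusted p = 7.5e-04, and -3.90 ± 0.74, adjusted p = 1.3e-04, without mural library C). Mural library C overlapped the cumulus range for both. SLC38A3, an alanine carrier known from mouse cumulus cells, was at most 1.14 CPM in any library and could not be tested.

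The peptide NPPC acts on its receptor NPR2 on cumulus cells, and the cyclic GMP made there keeps the oocyte in meiotic arrest. NPR2 was higher in cumulus cells, at 20.5, 28.99, 15.1, 26.9 and 25.01 CPM against 6.57, 10.1, 3.91, 7.81 and 8.68 CPM, without overlap (1.43 ± 0.36, adjusted p = 0.0028, and 1.25 ± 0.35, adjusted p = 0.0055, without mural library C). NPPC was nearly undetected in both groups, at most 0.857 CPM, and was not called (-0.79 ± 1.36, adjusted p = 0.67, and 0.68 ± 1.48, adjusted p = 0.74, without mural library C). It was called without cumulus library 3, which holds its only cumulus counts (adjusted p = 0.04). NPR1, the receptor of the related atrial peptide, was lower in cumulus cells, at 0.801, 0.590, 0.554, 0.725 and 0.564 CPM against 3.27, 5.80, 3.37, 6.97 and 4.79 CPM (-3.09 ± 0.35, adjusted p = 3.0e-07, and -3.21 ± 0.36, adjusted p = 1.0e-07, without mural library C). In the whole list of 17 genes, 4 were higher and 2 lower in cumulus cells with all libraries, and 3 and 2 without library C.

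Of the cumulus expansion genes, which the ovulatory surge induces, HAS2, PTX3, TNFAIP6 and PTGS2 were low in the cumulus libraries. HAS2, which makes the hyaluronan of the expanding matrix, stood at 0.229, 0.393, 11.005, 0.362 and 0.986 CPM in cumulus libraries and was detected in mural library C only (4.27 ± 1.32, adjusted p = 0.012), at least 63.7-fold above the limit over the other 4. Cumulus library 3 held most of it, and without that library the gene was not called (1.78, adjusted p = 0.25). The matrix proteins PTX3 and TNFAIP6 were at 0 in the other 4 cumulus libraries and at 5.68 and 10.9 CPM in library 3. Mural library C held 76.1 CPM of PTX3, which was not called in either fit (-3.74 ± 1.85, adjusted p = 0.12, and 4.19 ± 1.72, adjusted p = 0.0531, without mural library C) and was called lower without cumulus library 3 (adjusted p = 0.014). PTGS2, which makes prostaglandin H2, was low in both groups, at most 1.61 CPM, and lower in cumulus cells (-2.66 ± 0.78, adjusted p = 0.0085, and -2.41 ± 0.81, adjusted p = 0.018, without mural library C). PTGS2 lost its call in 2 of 21 alternatives (adjusted p up to 0.0529). PTGES, which turns that product into prostaglandin E2, was higher in cumulus cells at 79.04, 71.3, 12.3, 45.1 and 50.3 CPM against 5.01, 5.80, 0.321, 2.46 and 3.27 CPM, without overlap (3.68 ± 0.59, adjusted p = 4.4e-05, and 3.39 ± 0.52, adjusted p = 2.1e-05, without mural library C).

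Stress and matrix genes were mixed. In the list of 28 immediate early and heat shock genes, 6 were higher and 7 lower in cumulus cells with all libraries, and 10 and 5 without library C. NR4A1, an immediate early nuclear receptor, stood at 86.3, 144, 109, 662 and 244 CPM in cumulus and 6.68, 4.35, 11.6, 2.58 and 4.03 CPM in mural libraries (5.16 ± 0.66, adjusted p = 3.5e-06, and 5.48 ± 0.74, adjusted p = 6.9e-06, without mural library C). KLF4, another early response factor, was lower in cumulus cells, at most 0.302 CPM against 14.8, 2.05, 34.5, 0 and 2.23 CPM (-6.02 ± 1.33, adjusted p = 0.0012, and -5.05 ± 1.30, adjusted p = 0.0043, without mural library C), and the groups overlapped at mural library D. KLF4 lost its call in 2 of 22 alternatives (adjusted p up to 0.46). SESN2, a stress-induced inhibitor of mTORC1, stood at 54.2, 65.1, 81.5, 65.8 and 50.6 CPM in cumulus and 5.70, 6.22, 6.32, 3.18 and 6.03 CPM in mural libraries (3.33 ± 0.24, adjusted p = 4.1e-09, and 3.34 ± 0.27, adjusted p = 1.4e-09, without mural library C). The groups lay far apart, with cumulus library 3 and mural library C each the highest of its group.

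Of 22 matrix genes, 3 were higher and 8 lower in cumulus cells, and without library C 5 and 4. COL4A1, a chain of basement membrane collagen, stood at 68.9, 89.6, 80.6, 115 and 99.4 CPM in cumulus and 16.9, 28.7, 121, 21.5 and 17.9 CPM in mural libraries, where library C was the highest of all 10 (0.998 ± 0.37, adjusted p = 0.033, and 1.86 ± 0.22, adjusted p = 2.6e-07, without mural library C). COL4A1 lost its call in 9 of 25 alternatives (adjusted p up to 0.14), 6 of them the fits without cumulus 4, cumulus 5, mural A, mural B, mural D or mural E, at 0.82 to 0.96. FBLN1 (fibulin 1) was lower in cumulus cells, at 3.43, 2.11, 3.67, 3.02 and 1.97 CPM against 12.1, 11.4, 9.75, 14.4 and 12.9 CPM, without overlap (-2.29 ± 0.27, adjusted p = 4.5e-07, and -2.39 ± 0.27, adjusted p = 1.4e-07, without mural library C).

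The lists not described so far are given by the counts that were called alike in both fits, in cumulus relative to mural cells. Of 14 genes known from cumulus cells, 7 were higher and 3 lower. Of 15 genes known from mural cells, 3 were higher and 2 lower. Of 10 inhibin and activin genes, 2 were higher and 0 lower. Of 12 genes of the insulin-like growth factor system, 1 was higher and 1 lower. Of 12 cumulus expansion genes and EGF-like ligands, 5 were higher and 2 lower. Of 14 targets of YAP and TEAD, 1 was higher and 2 lower. Of 19 apoptosis and p53 response genes, 4 were higher and 2 lower.

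Markers of other cell types were looked up in all 10 libraries. The 15 oocyte markers with a symbol summed to 11.8 to 21.98 CPM in cumulus libraries and 3.46 to 6.37 CPM in mural libraries. BMP15, ZP4, FIGLA, PADI6, MOS and KPNA7 had 0 counts in all 10, and OOEP was the highest marker in 9 of the 10 libraries. The 11 endothelial markers summed to 5.35 to 11.4 CPM in cumulus libraries and 2.09 to 6.10 in mural libraries other than C, with 26.3 in C. PECAM1 was at 0 in 9 of the 10 libraries and EMCN in all 10. The 13 leukocyte markers summed to at most 34.4 CPM, in cumulus library 2, where C1QA, C1QB and C1QC made up most of the sum. The part of other cell types in the differences was not tested.

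Surface epithelium markers summed to 549.7 to 798 CPM in cumulus libraries and 224 to 283 CPM in mural libraries, nearly all of it UPK1B outside library C. Their keratin KRT7 and EPCAM were at 0 in all 10 libraries. INSL3, which is on the theca and stroma list, stood at 26.9 CPM in cumulus library 3, 382 to 597 in the other cumulus libraries, 1.87 in mural library C and 190.4 to 349 in the other mural libraries, while CYP17A1 was at 0 in all but library C. Of the other theca and stroma markers, MYH11 ranged from 11.1 to 106 CPM over the 10 libraries. COL1A1 stood at 12.3 to 41.6 CPM in cumulus and 1.71 to 6.59 CPM in mural libraries, without overlap. TCF21 stood at 0.346 to 10.2 CPM and 0.107 to 0.474 CPM and overlapped through cumulus library 3. Of the 12 tested genes of that list, both fits called 2 higher and 3 lower in cumulus cells, beside 17.5% and 18.3% of all genes. LUM ranged from 26.2 to 60.7 CPM and POSTN from 26.6 to 64.02 CPM in cumulus libraries. The stromal marker PDGFRA ranged from 14.3 to 79.5 CPM in cumulus libraries, highest in library 3, and from 1.23 to 5.38 in mural libraries other than C, which held 145.

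The same comparison was made a stage earlier, in early antral follicles, with no library in common. There 6.7% of genes tested (958) were higher and 6.39% (913) lower in cumulus cells, 13.1% together. Of the 5050 genes called in both late fits, 445 were called in the same direction in early follicles (8.81% of the late genes and 23.8% of the 1871 early ones) and 330 in the opposite one (6.53% and 17.6%). The late difference minus the early one was called, with and without library C, for 14% of genes in the cumulus direction and 16% in the mural direction. In single fits the shares called were 31.4% with all libraries and 36.4% without library C.

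By list, stage differences were frequent for respiration and the cell cycle. Of the respiratory genes, 76 had a late minus early difference called towards mural cells in both fits and 0 towards cumulus cells. In early follicles 7 of them were higher and 0 lower in cumulus cells. Their summed level was 48189.8 to 53709.8 CPM in early_CC and 32737 to 49749 CPM in early_MGC. Of the cell cycle genes, 22 differed by stage towards mural cells and 1 towards cumulus cells, and 4 were higher and 0 lower in early cumulus cells.

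Hypoxia and glycolysis genes were already higher in early cumulus cells for part of their lists. In early follicles 7 hypoxia genes were higher and 0 lower in cumulus cells, and 13 and 0 glycolysis genes. The difference was larger in late follicles, by the test of stage in both fits, for 10 hypoxia and 6 glycolysis genes. VEGFA averaged 69.1 ± 35.3 CPM in early_CC and 12.98 ± 8.17 in early_MGC (SD, n = 5), and its late minus early difference was 4.37 ± 0.69, adjusted p = 7.5e-05, and 4.25 ± 0.72, adjusted p = 1.1e-04, without mural library C. The lactate gene LDHA, in contrast, had a late minus early difference of -0.43 ± 0.84, adjusted p = 0.74, and -0.39 ± 0.90, adjusted p = 0.77, without mural library C, which did not pass.

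Among genes with the largest stage differences, GSTA5 averaged 46.03 ± 30.2 CPM in early_CC and 37.7 ± 25.4 in early_MGC (late minus early difference -4.93 ± 0.99, adjusted p = 8.7e-04, and -5.24 ± 0.68, adjusted p = 8.1e-06, without mural library C). The late minus early difference of CD99 was -5.75 ± 0.91, adjusted p = 9.5e-05, and -4.24 ± 0.48, adjusted p = 1.2e-06, without mural library C. That of CSPG4, a membrane proteoglycan, was -3.81 ± 0.96, adjusted p = 0.0044, and -4.09 ± 0.81, adjusted p = 3.8e-04, without mural library C. CSPG4 stood at 2.35 to 9.48 CPM in late cumulus libraries and 14.95 to 36.3 CPM in late mural libraries other than C. GRB7, an adaptor of growth factor receptors, was at most 1.03 CPM in late libraries and averaged 12.4 and 6.02 CPM in early_CC and early_MGC (-4.66 ± 0.71, adjusted p = 3.8e-05, and -4.85 ± 0.68, adjusted p = 7.9e-06, without mural library C).

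PAG11, a placental glycoprotein gene whose relatives may share reads, had 0 counts in late_CC and at most 1.18 CPM in a mural library, at least 11.7-fold lower in cumulus cells against the limit of 3 counts over the group (at least 14.3-fold without mural library C). PAG11 lost its call in 3 of 21 alternatives (adjusted p up to 0.32), 1 of them the fit without mural A. Library A holds most of its counts. In the cumulus direction, SERTAD4, of the SERTA domain family, varied widely among late cumulus libraries, at 2.69, 15.6, 37.8, 2.11 and 0.141 CPM, and overlapped the mural libraries at 0.209, 1.09, 1.61, 0.120 and 0.0949 CPM. SERTAD4 lost its call in 2 of 24 alternatives (adjusted p up to 0.1).

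**Figure D5:**
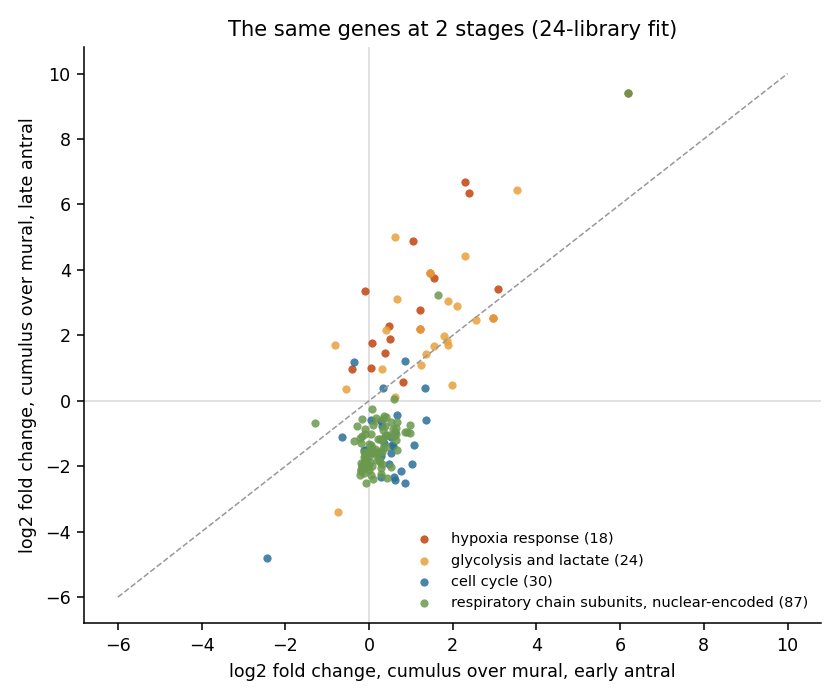
Log2 fold change of cumulus over mural cells in early antral follicles (horizontal) and late antral follicles (vertical) for 4 gene lists in the 24-library fit, 1 point per gene, with the dashed line marking equal values; a gene on 2 lists is drawn under both. Nearly all respiratory and most cell cycle points lie below 0 on the vertical axis, and most hypoxia points lie above the dashed line.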

How the data were processed

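The deposited values are whole-number counts. Per the file headers, the authors counted reads on exons by gene with featureCounts 2.0.0 and an Ensembl annotation of ARS-UCD1.2, without options for strand, pairs or multiple alignments, so antisense or overlapping genes and close relatives cannot be fully separated. The submitters' processing notes name fastp 0.20.0, HISAT2 2.1.0, SAMtools 1.10 and bosTau9. The exon length of each gene (other values, in bases) was deposited too and served for the length correction. Depth over the 24 libraries was 8379801 to 31762400 counts. 1 column of no sample was not used. None of the 20 pairs of late replicates agreed within sampling noise (lowest chi-square per degree of freedom 18.6).

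edgeR 4.0.16 in R 4.3.3 was run with TMM, filterByExpr and robust dispersions, with 24 libraries and with 23 (without mural library C), and the late minus early difference was a contrast of each. Tested on simulated data of the 24-library comparison (13962 genes), it recovered 19% of genes changed 2-fold and 65% of those changed 4-fold, with 2.3% of calls false. In the simulation few genes were changed and no library stood apart. It gave 86 calls, against 5673 in the data, so these shares describe that setting only. Alternatives were other scaling and filters, DESeq2 1.42.0, limma 3.58.1, the 2 late groups alone, libraries left out, and, chosen after seeing the data, length-corrected offsets, a fit without mural C and cumulus 3, and a block by column letter. Members, lists and tests were chosen with earlier results of these data known.

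Symbols were assigned by position from RefSeq ARS-UCD2.0 and reached 10716 (87.7%) of 12219 genes averaging 1 CPM or more. After a shift of 1000000 bases 1039 would still match, so single names can be wrong. Named were, among genes called alike in both fits, the 12 largest in each direction (at least 10 CPM, no overlap with mural A, B, D and E), up to 4 from each of the 29 lists, 5 in each direction for stage, up to 10 in each direction for library C, and 26 by name. EPO, LDHA, LDHB, NDUFA4, COX4I1, COX4I2, ENO2, CCND2, CDKN1C, JAG1, HEYL, HTRA3, KDM7A and the marker genes were named after their values were seen. Promoter sequences were not analysed here.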

Additional observations from a re-analysis of the deposited data

Results flagged for a closer look

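Single libraries far from the rest of their group were sought by the gap of the extreme library on the log2 scale, divided by the range of the 5 libraries (limit 0.71), in 190 sets of 5 values. Chance alone would flag about 1 in 20 sets if they were independent and unselected. These genes share the same 10 libraries, and many were chosen by their values in the fit without library C. The count therefore cannot be set against that rate. Genes picked because library C differed were left out. The search found 71, of which 37 were mural library C and 30 cumulus library 3. All values here are CPM. In mural library C, the genes far below the other 4 libraries were GSTA5 8.20, NR0B1 1.93, CARTPT 2.25, HSPA1A 45.6, CNTNAP5 1.18, GSTA2 17.8, KCNE5 5.09, GSTA1 1334 and AMH 2.73. Lower as well there were FSHR 10.6, CYP19A1 0.107, INHA 26.3, FST 83.02, NPR2 3.91, GJA1 392, DLL4 0.107, SQLE 33.2 and IGFBP4 1.29. The same held in it for SLC1A3 0.429 and FOXL2 0. Far above the other 4 libraries, mural library C held EGLN3 1.93, PFKP 29.6, SLC2A1 144, PPP1R3C 2.20, HBA 0.375, JAG2 0.321, PARM1 2.46, BHLHE40 105 and CD99 198. It also held more of STAR 123, KITLG 52.3, HAS2 0.643, PTX3 76.1, DAAM1 74.03, GJA4 11.5, CDH1 181 and COL4A1 121. In cumulus library 3, the genes far below the other 4 libraries were NDUFA4L2 5.95, DDIT4 122, SLC16A3 10.2, PDK1 28.8, PPP1R3C 0.969, HBA 0.415, HBZ 3.18, HBA1 0.692 and JAG2 0.138. Lower as well there were CCDC184 0.969, CDKN3 1.80, CDKN1B 34.1, CYP19A1 4.36, CYP11A1 57.2, HSD3B1 39.5, INHBA 191, FST 3044 and INHBB 383. The same held in it for GATA4 96.7, SQLE 31.8, SRD5A1 12.9, GHR 7.82, IGFBP4 3.88, SLC1A1 2.35, EPO 0.138 and LDHA 185. Far above the other 4 libraries, cumulus library 3 held PARM1 83.6, NPPC 0.692, PTX3 5.68 and GJA1 778. The others were SLC16A3 in mural library A at 5.32, SLC2A1 in cumulus library 4 at 443, GSTA5 in cumulus library 4 at 8.40 and SESN2 in mural library D at 3.18.

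The cumulus minus mural difference was not the same in late and early follicles for 53 of the genes named, by edgeR's test of the interaction in both fits. Left out of that number were genes with 3 or fewer counts in 1 of the 4 antral groups, HBA1 and PAG11 among them, and genes picked because library C differed, such as POSTN. The values are late minus early differences on the log2 scale from the fit with all 24 libraries. Towards cumulus cells in late follicles, the difference grew for HBA (7.64), SERTAD4 (6.27), JAG2 (5.95), HBZ (5.70), HAS2 (5.53), CCDC184 (4.72), NR4A1 (4.49), PFKFB3 (4.38), VEGFA (4.37) and EGLN3 (3.97). Smaller values in that direction were those of SFRP4 (3.86), DDIT4 (3.83), KDM7A (3.82), ACTA1 (3.75), VDR (3.61), BHLHE40 (3.58), SLC1A1 (3.34), DLL4 (3.21), GHR (3.12) and SLC16A3 (2.90). Next came SESN2 (2.64), PDK1 (2.44), PTGES (2.39), MYO10 (1.74), SRD5A1 (1.65), CDKN1B (1.55) and AFDN (0.83). Towards mural cells it grew for CD99 (-5.75), GSTA5 (-4.93), GRB7 (-4.66), CSPG4 (-3.81), SPC24 (-3.59), CCNA2 (-3.36), CENPW (-3.28), HSPA1A (-3.13), CDKN3 (-3.10) and CCNB1 (-3.06). Smaller in size were FBLN1 (-3.02), NR0B1 (-2.98), PCNA (-2.93), ID1 (-2.88), CCNB2 (-2.88), EBP (-2.84), FDPS (-2.45), CNTNAP5 (-2.45), NDUFA4 (-2.43) and GSTA2 (-2.39). After these came HSD3B1 (-2.34), KCNE5 (-1.67), GJC1 (-1.59), NPR1 (-1.31), COX4I1 (-1.21) and LDHB (-0.78).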

How the results depend on the processing

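The counts of 2704 higher and 2969 lower genes stayed within 1.5 times under all alternatives run, from 2019 to 3982 and from 2033 to 3690. Leaving out single libraries gave 2291 to 3005 higher and 2566 to 3037 lower. Of the 95 genes named with a test, 83 were called, many of them because the naming rule asked for a call. Of these 83, 64 kept their direction and call in every alternative that tested them. STAR, FSCN1 and CDH1 reversed wherever library C was left out or weighted down. Their log2 fold changes were 0.29, 2.22 and 1.20 in limma-voom with library weights, 0.39, 1.73 and 1.45 in the 2 late groups alone without mural library C, 0.42, 1.50 and 1.32 in the fit without mural library C and cumulus library 3, 0.42, 1.49 and 1.32 in the fit without the 3 libraries least like their groups (mural C, cumulus 3 and early_MGC 4), 0.33, 1.62 and 1.13 in offsets corrected for length without mural library C, 0.45, 1.74 and 1.45 in a replicate block by column letter without mural library C. With 1 library left out at a time they ranged from -2.83 to 0.44 for STAR, -1.91 to 1.77 for FSCN1 and -1.05 to 1.50 for CDH1. Outside these 95 genes, JAG1 (above) and HTRA3 were called in opposite directions with and without library C. HTRA3, a listed cumulus gene, had -3.27, adjusted p = 0.044, and 2.64, adjusted p = 0.0078, without it by edgeR's test. PTX3 changed sign too but was called in neither fit. Cytosolic ribosomal proteins fell from 42 lower genes to 19 with length correction, 21 with it and without library C, and 25 with the 2 late groups alone (26 with the block below). Apart from the correction itself, the cause was not tested. A replicate block by the column letter was chosen after seeing the data. Deviations from the group means of same-letter cumulus and mural libraries correlated at 0.41, 0.05, 0.28, 0.07 and 0.16 for A to E, highest with the own letter for 5 of 5 cumulus and 3 of 5 mural libraries. The pairs B and D were near 0, and the meaning of the letters is not given, so the main fits carry no pairing by letter. Whether the letters pair the samples was not tested further. The block gave 2858 higher and 2980 lower genes with all libraries, 3017 and 3012 without library C, and 2734 and 2594 with the 2 late groups alone (2326 and 2333 unblocked). Of the genes named, it took the call from CARTPT, AMH, STAR, GJA1 and FOXL2 and gave one to DAAM1 with all libraries, took it from CYP11A1, INHBA, FOXL2 and PTGS2 without library C and from KITLG with the late groups alone, where it gave one to GSTA1, AMH, INHBA, DAAM1, CDH2, COL4A1 and LDHB.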

Other observations

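Further gene groups, chosen by symbol after values were seen, add to the description and carry no test as groups. Histone lysine demethylases, many of them oxygen-using enzymes, had 8 of 15 higher and 0 lower in late cumulus cells (9 and 0 without mural library C). KDM7A, which removes repressive methyl marks, stood at 13.1, 29.9, 79.7, 32.1 and 33.7 CPM in cumulus libraries 1 to 5 and 1.46, 3.93, 11.8, 2.64 and 2.61 CPM in mural libraries A to E, with no overlap, and its log2 fold change by edgeR's test was 2.96 ± 0.48, adjusted p = 3.1e-05, and 3.64 ± 0.44, adjusted p = 3.5e-07, without mural library C. Of the 5 prolyl and lysyl hydroxylases of collagen, 4 were higher and 0 lower. Plexins and semaphorins, receptors and ligands of cell guidance, had 7 of 20 higher and 1 lower.

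Zinc finger genes named ZNF, mostly transcriptional repressors, had 44 of 177 higher and 6 lower in cumulus cells. Proteasome subunits had 24 of 38 lower and 0 higher, and proteins of the small nuclear ribonucleoproteins 18 of 23 lower and 1 higher. With offsets corrected for exon length, 22 proteasome and 16 ribonucleoprotein genes were lower, and 36 ZNF and 7 demethylase genes higher. The median log2 fold change then went from -0.90 to -0.55 for proteasome and from -1.51 to -1.01 for ribonucleoprotein genes. It went from 0.39 to 0.26 for ZNF and from 0.81 to 0.40 for demethylase genes.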
